A study of Mus musculus with 6 samples.

Results

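The data described are the transcripts of 10 genes of mural cells, the pericytes and smooth muscle cells that wrap blood vessels, in sorted cells labelled as peritoneal endothelial cells (ECs) from mice on peritoneal dialysis (PD) fluid. The genes were chosen by symbol, namely Pdgfrb, Notch3, Rgs5, Cspg4, Mcam, Kcnj8, Abcc9, Myh11, Cnn1 and Des, and each symbol matched 1 row of the 22183 genes of the deposited count table. RNA was sequenced from 3 saline mice and 3 PD mice, all wild type and, per the methods, male C57BL/6J mice of 8 to 10 weeks. Saline mice received saline and PD mice received high-glucose Dianeal PD fluid, both by intraperitoneal injection every day for 6 weeks, and each library came from 1 mouse. The cells were taken from the mesentery and sorted on CD31, an adhesion molecule that ECs share with several leukocytes and platelets, so the libraries measure a sorted population and not whole vessels.

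Pericytes sit under the endothelium of capillaries and small venules, and smooth muscle cells form the contractile layer of arteries, arterioles and larger veins. ECs recruit both by releasing PDGF-B, which binds PDGFRB on the mural cell, and keep contact with them through Jagged ligands and NOTCH3. Smooth muscle cells are told from pericytes mainly by the late contractile proteins smooth muscle myosin heavy chain (Myh11) and calponin (Cnn1), while Rgs5, Kcnj8 and Abcc9 are widely used to mark pericytes. None of the 10 genes is restricted to these cells: Pdgfrb is also made by fibroblasts, Mcam (CD146) by ECs, and desmin (Des) by striated muscle.

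A total of 21973426 to 26374292 reads per mouse were counted on genes, and 14005 genes passed the filter on low counts and were tested. Levels are given in CPM, the count of a gene relative to the library total, after scaling of the libraries by TMM, a method that assumes that most genes keep their level, and changes as the log2 fold change of PD mice against saline mice. Adjusted p-values come from the quasi-likelihood test of edgeR and were adjusted over all 14005 genes by the Benjamini-Hochberg method. Of the labelled cell type, the defining genes Pecam1, which encodes CD31, and Cdh5, which encodes VE-cadherin, were present in all libraries, with mean levels of 469 and 18.9 CPM in saline mice. Ptprc, the gene of the leukocyte antigen CD45, averaged 2370 CPM in the saline group and 1470 CPM in the PD group, and in every mouse 12 leukocyte markers summed to a higher level than 12 endothelial markers, so the libraries held much RNA of leukocytes beside that of ECs.

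Of the 10 mural genes, 8 were higher in PD mice (adjusted p under 0.05 in edgeR) and none was lower, where 31.1% of all tested genes were called higher, 27.8% lower and 58.9% in either direction. No mural gene was lower at an unadjusted p under 0.05 either, and the count was 0 in DESeq2 and limma-voom as well. The contractile genes Cnn1, Des and Myh11 rose most, by 3.88 to 5.67 times. Pdgfrb, Notch3, Cspg4 and Mcam rose by 1.95 to 2.94 times, and Rgs5 by 1.20 times. Once libraries were scaled to 12 endothelial markers, 4 genes were higher (Cnn1, Des, Myh11 and Mcam), 3 were lower (Rgs5 at a log2 fold change of -0.70, Kcnj8 and Abcc9), and Pdgfrb, Notch3 and Cspg4 were not called. By that scaling, 1187 of all 14005 tested genes were higher and 10034 lower. With TMM scaling, Kcnj8 and Abcc9, which encode the subunits of a potassium channel of pericytes, did not pass the test. The median log2 fold change of the 10 genes was 1.22, against 0.02 over all tested genes.

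**Figure D1:**
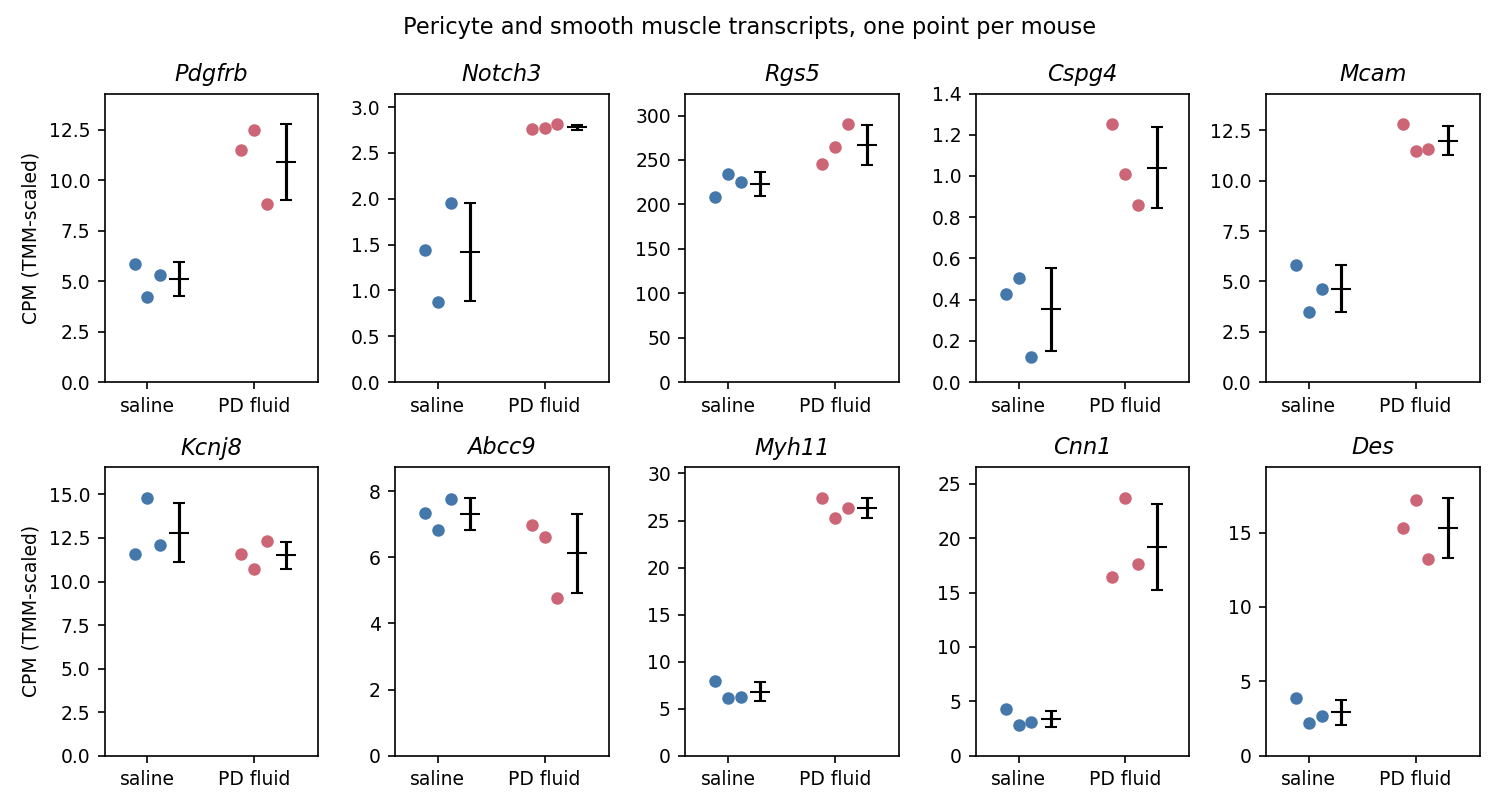
Level of each mural gene in CPM (vertical axis, linear from 0) in the saline and PD fluid groups; points are mice, and the bar beside them gives the mean and SD (n = 3). The groups stand apart in 8 panels and overlap for Kcnj8 and Abcc9.

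To show the DNA that lies ahead of genes that rose and of genes that did not pass the test, sequence upstream of the transcription start was taken from RefSeq (GRCm38.p6) for Cnn1, Des and the related contractile gene Myl9, and for Kcnj8 and Abcc9. RefSeq promoters were matched for 8 of the 10 mural genes, with Pdgfrb and Myh11 unmatched. The printed windows run 5′ to 3′ on the strand of the gene, from 250 to 51 bases before the start, and cover chr9:22099003-22099202 (+) for Cnn1, chr1:75360042-75360241 (+) for Des, chr2:156775214-156775413 (+) for Myl9, chr6:142571665-142571864 (-) for Kcnj8 and chr6:142702325-142702524 (-) for Abcc9. Capitals mark a CArG box, the site of serum response factor that many smooth muscle genes carry, in Myl9, the E-box CANNTG in Cnn1, Des and Kcnj8, and TGGGAA, the core bound by the NOTCH effector RBPJ, in Abcc9.
Cnn1: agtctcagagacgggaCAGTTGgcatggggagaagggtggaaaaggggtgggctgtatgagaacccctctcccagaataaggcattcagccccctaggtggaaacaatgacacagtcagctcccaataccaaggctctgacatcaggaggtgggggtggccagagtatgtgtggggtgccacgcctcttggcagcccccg
Des: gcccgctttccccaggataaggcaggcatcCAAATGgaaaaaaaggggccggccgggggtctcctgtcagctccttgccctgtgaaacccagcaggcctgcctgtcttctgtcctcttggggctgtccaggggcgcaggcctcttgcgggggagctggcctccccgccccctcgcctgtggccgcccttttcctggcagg
Myl9: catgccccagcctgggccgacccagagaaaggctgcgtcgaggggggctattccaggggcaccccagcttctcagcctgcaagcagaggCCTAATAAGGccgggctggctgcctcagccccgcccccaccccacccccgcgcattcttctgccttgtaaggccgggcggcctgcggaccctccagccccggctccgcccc
Kcnj8: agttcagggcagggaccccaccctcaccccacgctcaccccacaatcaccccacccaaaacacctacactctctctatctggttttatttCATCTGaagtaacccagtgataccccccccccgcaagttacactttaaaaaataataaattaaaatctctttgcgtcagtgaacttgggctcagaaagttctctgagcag
Abcc9: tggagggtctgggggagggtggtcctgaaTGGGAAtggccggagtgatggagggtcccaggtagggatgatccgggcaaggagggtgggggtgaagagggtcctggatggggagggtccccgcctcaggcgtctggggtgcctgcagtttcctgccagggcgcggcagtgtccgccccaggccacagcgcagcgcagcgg
Both strands were searched. A gene of a list was counted if any of its promoters held a match, whereas the shares of all promoters count single promoters. A CArG box was in the 200-base window of 0 of the 8 matched mural genes and of 1 of 16 matched genes of the other smooth muscle list (Myl9), against 1.16% of all 32851 RefSeq promoters. CANNTG was found in 4 of the 8 and in 59.0% of all promoters, and TGGGAA in 1 of the 8 and in 17.9% of all. A missing match says only that these letters are not in this window.

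Myh11, the motor protein of smooth muscle, lies at chr16:14194535-14291372 (minus strand of GRCm38 in GENCODE M21, matched by Ensembl identifier, as are the gene positions that follow). It was at 7.97, 6.18 and 6.21 CPM in the saline mice and at 27.4, 25.3 and 26.3 CPM in the PD mice. The highest saline mouse was far below the lowest PD mouse, and the PD mice differed little among themselves. The log2 fold change was 1.95 (SE 0.13, adjusted p = 3.65e-07).

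Cnn1, an actin-binding protein that restrains actomyosin, lies at chr9:22099216-22109630 (plus strand). Its level was 4.26, 2.81 and 3.11 CPM in saline mice and 16.4, 23.7 and 17.6 CPM in PD mice. This was the largest change of the 10 genes, with a log2 fold change of 2.50 (SE 0.20, adjusted p = 1.64e-06), higher than that of 97.2% of all tested genes. Des, the intermediate filament of muscle, lies at chr1:75360329-75368579 (plus strand). It was at 3.87, 2.21 and 2.65 CPM in saline mice and at 15.3, 17.2 and 13.2 CPM in PD mice, a log2 fold change of 2.38 (SE 0.20, adjusted p = 3.14e-06). For both genes the groups lay several SDs apart. Leaving out each mouse in turn gave log2 fold changes of 1.89 to 2.09 for Myh11, 2.33 to 2.70 for Cnn1 and 2.22 to 2.65 for Des, and all 3 kept an adjusted p under 0.05.

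Pdgfrb, the receptor through which PDGF-B recruits mural cells, was at 5.86, 4.20 and 5.30 CPM in saline mice and at 11.5, 12.5 and 8.84 CPM in PD mice. PD mouse 3 was the lowest of its group and still above every saline mouse, and the log2 fold change was 1.09 (SE 0.18, adjusted p = 0.000422). Notch3, the NOTCH receptor of mural cells (chr17:32120820-32166852, minus strand), rested on 19 to 47 counts in saline mice and 62 to 75 counts in PD mice. In CPM it was 1.44, 0.876 and 1.95 in saline mice, against 2.76, 2.77 and 2.81 in PD mice. The spread lay in the saline mice, and the log2 fold change was 0.96 (SE 0.30, adjusted p = 0.0167). Without saline mouse 2, in which Notch3 was lowest, the change was 0.71 and the adjusted p was 0.0512 (edgeR).

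Among the surface proteins, Mcam, an adhesion molecule of mural cells and ECs (chr9:44134469-44142727, plus strand), was at 5.82, 3.50 and 4.64 CPM in saline mice and at 12.8, 11.5 and 11.6 CPM in PD mice. The log2 fold change was 1.36 (SE 0.18, adjusted p = 9.3e-05). Cspg4, which encodes the NG2 proteoglycan of pericytes (chr9:56865033-56899870, plus strand), was the least abundant of the genes, with 11, 11 and 3 counts in saline mice and 34, 24 and 19 counts in PD mice. Its groups did not overlap, but the log2 fold change of 1.56 carried the largest error of the 10 genes (SE 0.48, adjusted p = 0.0166). Without saline mouse 3 the adjusted p was 0.0545 (edgeR, log2 fold change 1.15), and without PD mouse 1 it was 0.0674 (edgeR, log2 fold change 1.40).

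Rgs5, a GTPase activator that dampens G protein signalling and a standard pericyte marker (chr1:169655501-169695813, plus strand), was by far the most abundant of the genes and changed little. It was at 208, 234 and 225 CPM in saline mice and at 245, 265 and 290 CPM in PD mice. The groups were separate by a small margin, and the log2 fold change was 0.26 (SE 0.08, 95% interval 0.10 to 0.43, adjusted p = 0.0117). Without saline mouse 1, the lowest of the 6, the log2 fold change was 0.22 and the adjusted p 0.0593 (edgeR). Rgs5 alone made up 81.1% to 84.8% of the summed CPM of the 10 genes in saline mice and 69.8% to 74.7% in PD mice, while the summed CPM of the other 9 genes went from 41.9 to 48.6 in saline mice to between 98.3 and 111 in PD mice.

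Kcnj8 and Abcc9 encode Kir6.1 and SUR2, the pore and the regulatory subunit of the vascular ATP-sensitive potassium channel, which couples the metabolic state of a mural cell to its membrane potential. The genes are neighbours on the minus strand of chromosome 6, at 142564837 to 142571614 and 142587862 to 142702315, with 16247 bases between them. Kcnj8 was at 11.6, 14.8 and 12.1 CPM in saline mice and at 11.6, 10.7 and 12.3 CPM in PD mice, and the groups overlapped. Its log2 fold change was -0.15 (SE 0.13, 95% interval -0.45 to 0.14, adjusted p = 0.339). Abcc9 was at 7.34, 6.83 and 7.78 CPM in saline mice and at 6.99, 6.63 and 4.76 CPM in PD mice, a log2 fold change of -0.25 (95% interval -0.64 to 0.13, adjusted p = 0.23). Both intervals end far below the changes of Pdgfrb, Mcam, Myh11, Cnn1 and Des. The alternative subunits Kcnj11 and Abcc8 were too low to be tested, with at most 2 counts of Kcnj11 in any mouse, and with 0, 1 and 0 counts of Abcc8 in saline mice against 20, 6 and 6 in PD mice.

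In 8 genes each PD mouse was above each saline mouse, as was the case for 34.0% of all tested genes, and no gene showed the opposite order, which 31.6% of all tested genes did. Of the 8, 6 changed at least 2-fold with an adjusted p under 0.05, against 15.4% of all tested genes higher by this rule; Rgs5 and Notch3 were the others. Ratios of counts within a mouse do not depend on how libraries are scaled. Myh11 counts were 0.419 to 0.685 of the Kcnj8 counts in saline mice and 2.14 to 2.37 in PD mice, a log2 difference of 2.12. The Rgs5 counts were 15.9 to 18.6 times those of Kcnj8 in saline mice and 21.2 to 24.7 times in PD mice, a log2 difference of 0.41. For both ratios p was 0.1 in an exact permutation test (two-sided), which is the lowest value possible with 3 mice against 3, and it stayed at 0.1 after adjustment over the 5 ratios computed.

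Levels can be compared between genes only per transcript length, for which the FPKM values of the authors were used. In saline mice, Rgs5 was highest at 54.2 ± 2.83 FPKM (SD, n = 3), followed by Kcnj8 at 5.06 ± 0.64 FPKM (SD, n = 3). Cnn1, Mcam, Myh11, Abcc9, Des and Pdgfrb followed between 2.0 and 0.94 FPKM, and neighbours in this order overlapped between mice. Notch3 at 0.18 FPKM and Cspg4 at 0.04 FPKM came last, each below the range of the gene before. In PD mice the order had changed: Cnn1 was second at 12.1 ± 2.56 FPKM (SD, n = 3), above all genes but Rgs5 (65.4 ± 3.76 FPKM, SD, n = 3), and Des, Kcnj8, Mcam and Myh11 overlapped at 5.06 to 4.09 FPKM. Abcc9 had gone from sixth to eighth place, below Pdgfrb.

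**Figure D2:**
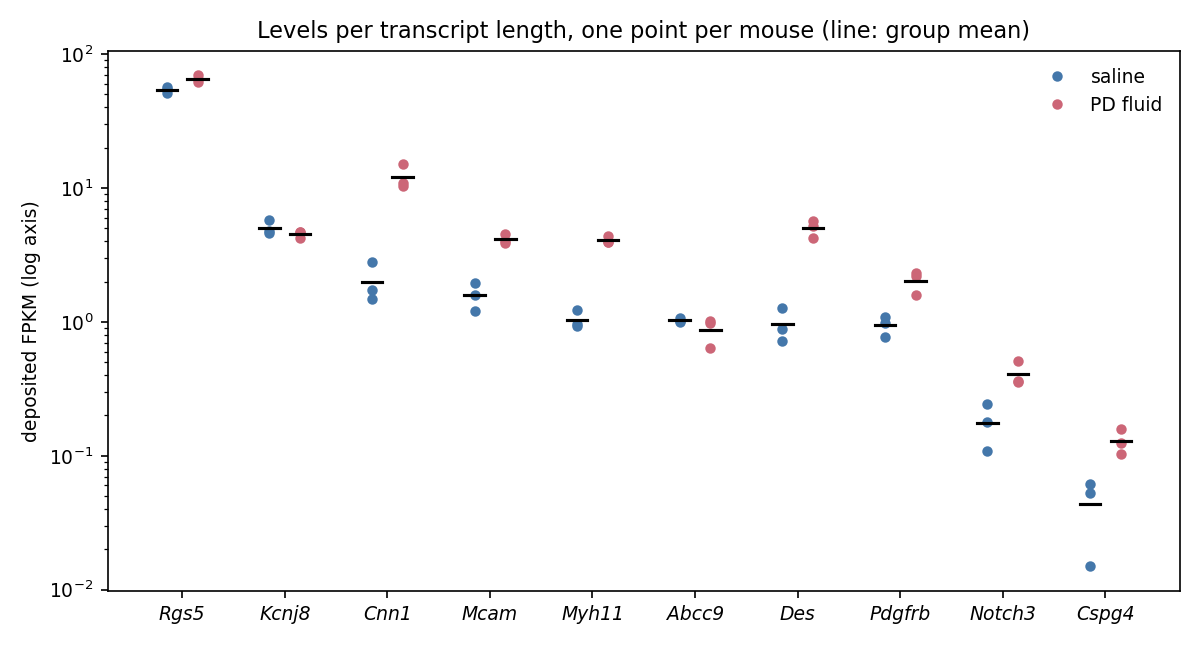
Deposited FPKM (log axis) of the mural genes in saline and PD mice, ordered by the saline mean; points are mice and lines are group means. Rgs5 lies above all other genes in both groups, and Cnn1 moves from 2.0 to 12.1 FPKM.

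Related genes were described in the same way, from lists that leave out the 10 genes. Of 20 other contractile genes of smooth muscle, 19 were tested and all 19 were higher in PD mice in edgeR, none lower at an unadjusted p under 0.05 in edgeR, DESeq2 or limma-voom, with a median log2 fold change of 1.22 against 0.02 over all tested genes. Of all tested genes, 31.1% were higher. Scaled to endothelial markers, 7 of the 19 were higher and 3 lower, against 1187 higher and 10034 lower of all 14005 tested genes. Actg2, the enteric smooth muscle actin, rose most (log2 fold change 2.97, SE 0.18, adjusted p = 1.73e-07), then Tpm2, a muscle tropomyosin (1.87, SE 0.13, adjusted p = 6.74e-07). Acta2, which encodes α-smooth muscle actin and is also made by myofibroblasts, went from 33.3 to 102 CPM, Tagln (SM22) from 15.2 to 39.9 CPM, and the myosin light chain Myl9 from 44.7 to 107 CPM. Myocd, the coactivator that drives the contractile programme, had 0 to 11 counts per mouse and could not be tested. Myh11 counts were 0.185 to 0.231 of the Acta2 counts in saline mice and 0.236 to 0.281 in PD mice (log2 difference 0.35, two-sided exact permutation test p = 0.1).

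Of 16 other pericyte genes, 15 were tested, of which 9 were higher and 6 not called, and none was lower at an adjusted or unadjusted p under 0.05 in edgeR, DESeq2 or limma-voom. Their median log2 fold change was 0.54. Of all tested genes, 31.1% were higher and 27.8% lower. Scaled to endothelial markers, 0 of the 15 were higher and 9 lower (edgeR), against 1187 higher and 10034 lower of all 14005 tested genes. Gucy1b1, a subunit of the nitric oxide receptor, had a log2 fold change of 1.21 (SE 0.22, adjusted p = 0.000732), and Anpep, the peptidase CD13 that fibroblasts and myeloid cells also carry, one of 1.18 (SE 0.14, adjusted p = 4.08e-05). Vtn, which encodes vitronectin, went from 3.15 to 6.12 CPM (adjusted p = 0.00615). Higd1b, a gene used to mark pericytes in many tissues, was at 3.51 CPM in both groups, with a log2 fold change of 0.00 (SE 0.24, adjusted p = 0.997). The log2 fold changes of the 6 genes that were not called ran from -0.28 to 0.27.

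**Figure D3:**
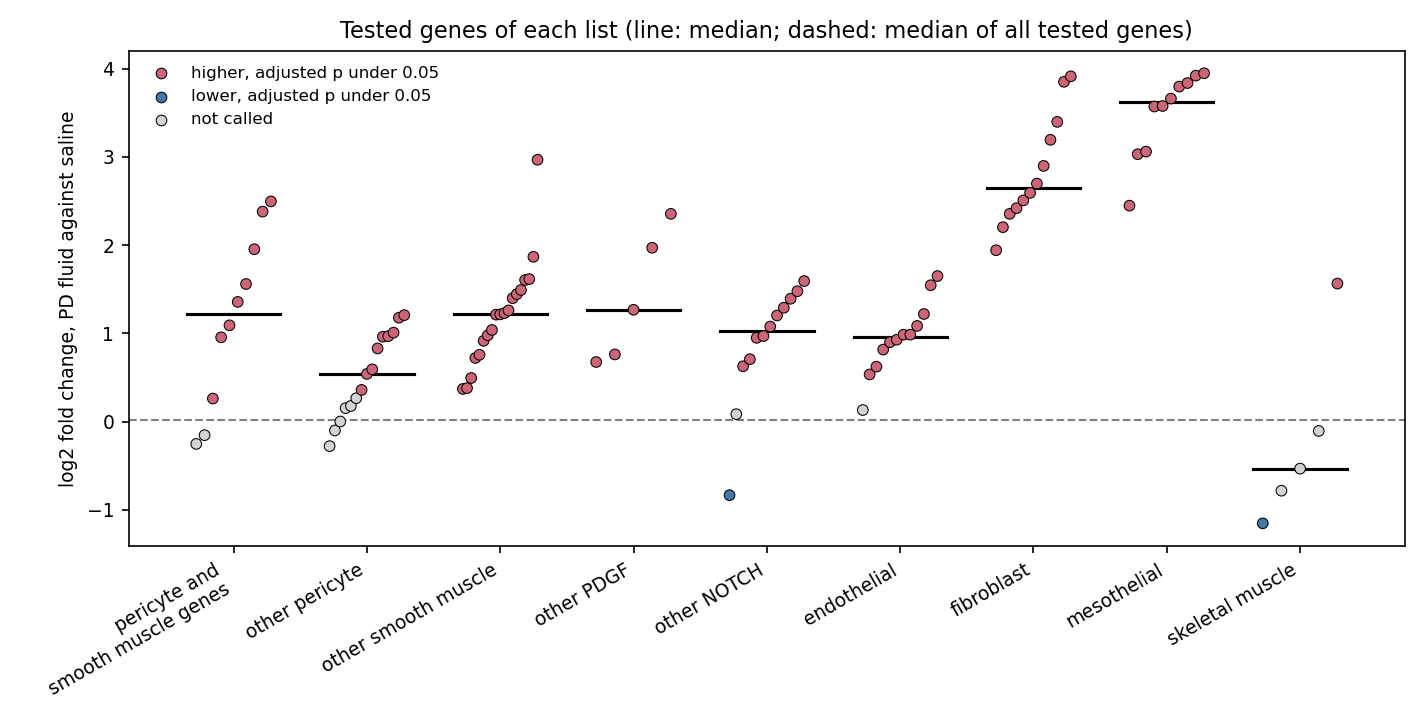
Log2 fold change of PD fluid against saline (vertical axis) for each tested gene of 9 lists, with the list median as a line and the median of all tested genes dashed; colours give the edgeR call. The other pericyte genes (median 0.54) lie below the other smooth muscle genes (median 1.22), and the medians of the fibroblast and mesothelial markers lie above both.

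Around the receptors, all 5 tested genes of the PDGF family other than Pdgfrb were higher in PD mice, against 31.1% of all tested genes. When scaled to endothelial markers, 2 of the 5 were higher, against 1187 of all 14005 tested genes. Pdgfra, the PDGF receptor of fibroblasts, rose from 2.37 to 12.1 CPM (log2 fold change 2.35, SE 0.16, adjusted p = 5.88e-07), and the ligand Pdgfc from 3.43 to 13.5 CPM. Pdgfb, the ligand by which ECs attract mural cells, rose from 6.55 to 11.1 CPM (log2 fold change 0.76, SE 0.20, adjusted p = 0.00696). Pdgfrb counts were 1.69 to 2.63 times those of Pdgfra in saline mice and 0.733 to 1.07 times in PD mice, a log2 difference of -1.26 (two-sided exact permutation test, p = 0.1). Pdgfrb thus had more counts than Pdgfra in every saline mouse and in 1 PD mouse, but counts are not adjusted for transcript length. By FPKM, Pdgfrb was above Pdgfra in PD mice 1 and 2 (2.188 against 1.847 and 2.309 against 2.297). In PD mouse 3 it was below (1.596 against 1.971 FPKM).

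Of 12 other NOTCH genes, 10 were higher, 1 was lower and 1 was not called, against 31.1% of all tested genes higher and 27.8% lower. Scaled to endothelial markers, 3 were higher and 3 lower, against 1187 higher and 10034 lower of all 14005 tested genes. Jag1, the ligand that activates NOTCH3 from the endothelium, was at 27.9 and 29.6 CPM (log2 fold change 0.08, SE 0.14, adjusted p = 0.632). Heyl, a NOTCH target of mural cells, rose from 2.51 to 5.27 CPM (adjusted p = 0.00637). Notch4, an endothelial receptor, and Hey2, a target, had the largest rises, with log2 fold changes of 1.59 (SE 0.21, adjusted p = 7.14e-05) and 1.48 (SE 0.50, adjusted p = 0.0251), and Notch2 fell by 0.83 on the log2 scale (adjusted p = 1.93e-05).

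Of 6 close relatives of the contractile genes, 3 were higher, 2 lower and 1 not called, against 31.1% of all tested genes higher and 27.8% lower. Scaled to endothelial markers, 0 of the 6 were higher (edgeR) and 4 lower, against 1187 higher and 10034 lower of all 14005 tested genes. Cnn2 and Cnn3, the calponins of non-muscle cells, fell from 386 to 340 CPM and from 486 to 366 CPM (adjusted p = 0.0306 and 0.000772). Counts of Cnn1 were 0.00543 to 0.00912 of those of Cnn3 in saline mice and 0.0442 to 0.065 in PD mice, a log2 difference of 2.92 (two-sided exact permutation test, p = 0.1). Of those that were higher, Myh10, a non-muscle myosin, and Nes, the filament nestin, rose by 0.87 (SE 0.22, adjusted p = 0.00512) and 0.72 (SE 0.24, adjusted p = 0.0239) on the log2 scale.

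Most endothelial markers, and all fibroblast and mesothelial markers, were also higher in PD mice. Against 31.1% of all tested genes, 11 of 12 endothelial markers were higher in PD mice, led by Tie1 (log2 fold change 1.65) and Robo4 (1.55). Their summed level was 1180 to 1190 CPM in saline mice and 1870 to 1970 CPM in PD mice. Pecam1 itself was at 469 and 514 CPM (adjusted p = 0.0704), while Cdh5 rose from 18.9 to 33.3 CPM. All 12 fibroblast markers were higher, with a summed level of 103 to 110 CPM against 893 to 931 CPM, led by Lum (log2 fold change 3.91) and Col1a1 (3.85), and all 10 mesothelial markers, with 15.7 to 19.3 CPM against 168 to 193 CPM, led by Bnc1 (3.95) and Msln (3.92). None of the endothelial, fibroblast or mesothelial markers was at 0 in all mice. The summed level of the 10 mural genes was 257 to 276 CPM in saline mice and 351 to 388 CPM in PD mice. Fewer or more cells of a type and less or more RNA per cell cannot be told apart in such libraries. The part of fibroblast, mesothelial and endothelial RNA in the change of the 10 mural genes was not tested.

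Among the 12 leukocyte markers, 5 were higher, led by the myeloid genes Itgam (log2 fold change 2.69) and Adgre1 (2.04). Another 6 were lower, led by the B cell genes Cd79a (-1.21) and Ms4a1 (-1.18). Over all tested genes, 31.1% were higher and 27.8% lower. The summed level of the leukocyte markers was 8940 to 9540 CPM in saline mice and 11800 to 12500 CPM in PD mice. This sum leaned on Lyz2, which went from a mean of 1630 CPM in saline mice to 6690 CPM in PD mice. Ptprc and Cd79a, the most abundant markers in saline mice, fell from 2370 to 1470 CPM and from 2050 to 889 CPM. The sum thus does not give the direction of leukocyte RNA as a whole. All 11 tested markers of pancreatic acinar cells were higher, from a summed level of 2.54 to 6.13 CPM to one of 7480 to 8430 CPM, led by Cela2a (log2 fold change 12.39) and by Reg1, which had 0 to 2 counts in saline mice and 5161 to 5402 counts in PD mice. Skeletal muscle also makes desmin. Its 10 markers summed to 18.5 to 21.6 CPM in saline mice and 14.4 to 16.3 CPM in PD mice, Myh1 and Myh4 had no count in any mouse, Mylpf fell by 1.15 on the log2 scale and Neb rose by 1.56, and the other 3 tested markers were not called. The part of skeletal muscle RNA in the level of Des was not tested. The 5 cardiac markers summed to at most 3.61 CPM, with Tnnt2 higher (log2 fold change 1.96). For glia of nerves and gut, 1 of 4 tested markers was higher (Cdh19, 1.81), and for adipocytes 1 of 5 (Plin4, 1.66), with summed levels of at most 13.8 and 14.1 CPM.

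Since the endothelial markers rose, the test was repeated with the libraries scaled to the mean log level of those 12 genes. It asks how the mural genes changed relative to that mean. The 12 genes did not rise alike, with log2 fold changes under TMM from 0.13 for Pecam1 to 1.65 for Tie1. Scaled to their mean, 3 of the 12 were called higher and 3 lower. The values below thus hold for this mean, and scaling to a single marker was not tested. This scaling lowered the log2 fold change of all tested genes by a median of 0.96 and left 1187 genes higher and 10034 lower, in place of 4359 and 3887. Relative to the endothelial markers, Cnn1, Des, Myh11 and Mcam were higher, with log2 fold changes of 1.55, 1.43, 1.00 and 0.41. Pdgfrb at 0.14 (adjusted p = 0.483 in edgeR), Notch3 at 0.01 (adjusted p = 0.977) and Cspg4 at 0.60 (adjusted p = 0.277) were not called. Rgs5 turned to -0.70, Kcnj8 was at -1.12 and Abcc9 at -1.21, all 3 with an adjusted p under 0.05.

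**Figure D4:**
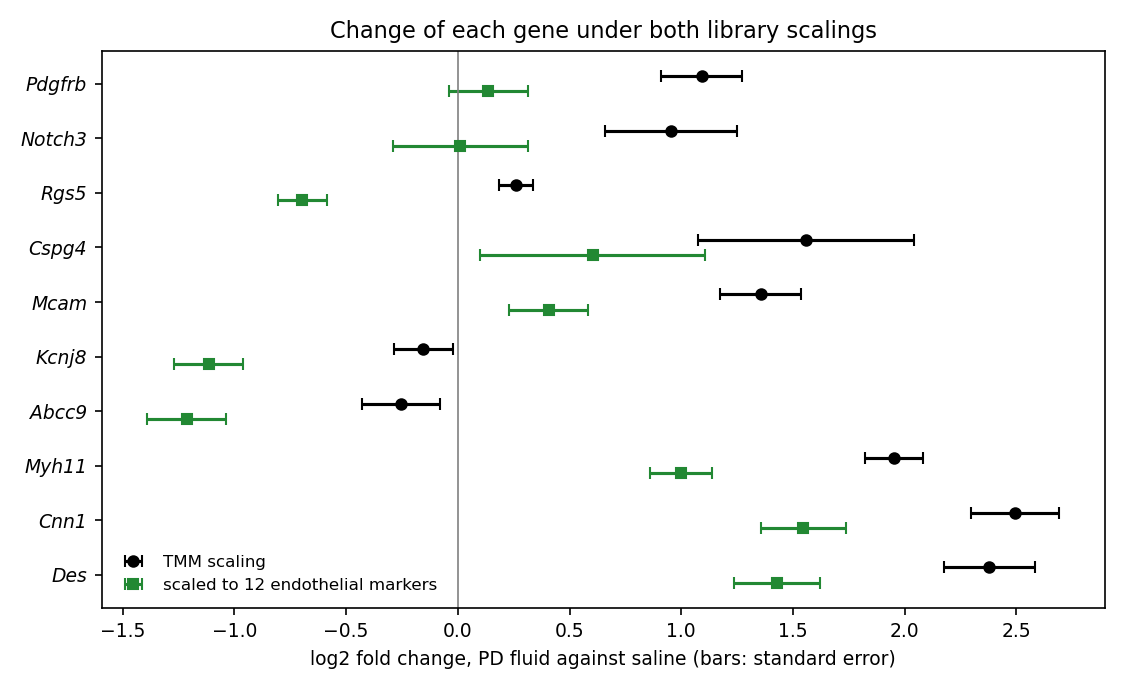
Log2 fold change of PD fluid against saline (horizontal axis, bars are the standard error) of each mural gene with TMM scaling (circles) and with scaling to 12 endothelial markers (squares). Cnn1, Des and Myh11 stay above 0 with both, whereas Rgs5 goes from 0.26 to -0.70.

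The rank of a mouse within its group was also counted over the genes. Among the saline mice, mouse 2 had the lowest CPM of its group in 7 of the 10 genes and the highest in 3. Each of the PD mice was the highest of its group in 3 or 4 genes and the lowest in 3 or 4. The library preparation named in the labels is not described as stranded, and Notch3, Mcam, Abcc9 and Des each overlap an annotated antisense gene in GENCODE M21, whose reads could not be told apart from theirs.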

How the data were processed

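The authors deposited a table with raw read counts per gene for each mouse, not normalized, and FPKM values that they computed from the same libraries. The submitters' processing notes name fastp 0.18.0, Bowtie2 2.2.8, HISAT2, StringTie and RSEM without their roles, and the genome build is not given in the sources used here. The deposited table also holds the authors' mean FPKM per group, their log2 ratio and the p-value and FDR of their own test, of which none was used. The sample labels describe magnetic sorting of CD31+ cells, whereas the study's methods describe flow sorting of CD31+ CD45- cells.

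Mice were grouped by treatment from the sample titles. Counts were filtered by filterByExpr, scaled by TMM and tested with edgeR 4.0.16 in R 4.3.3 (quasi-likelihood, no covariate), and an adjusted p of 0.05 was the threshold. The study names limma for its own comparison and not the values given to it, so limma 3.58.1 (voom, and log2(FPKM + 1) with a pseudocount of 1) and DESeq2 1.42.0 were alternatives. The SE of a log2 fold change was its size divided by the square root of F. FPKM values are not a fixed multiple of counts, since the length implied by both differed by up to 1.47 times between mice for Notch3 and 1.38 times for Cnn1. Replicates were distinct libraries, with a chi-square per degree of freedom of 6.46 to 18 between mice of a group. The edgeR p-values set the change against the spread between mice of a group. That spread was estimated from 3 mice per group with help from the other tested genes.

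The 10 genes and all lists were chosen with earlier results of these data known. Named from each list are the 2 genes of largest change in each direction past the threshold, and a set of genes named whatever their values. The fit was tested on simulated data. No column of sample values was left unmatched. Tables and plots were made with Python 3.11.15.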

Additional observations from a re-analysis of the deposited data

How the results depend on the processing

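The count of 8 mural genes higher and 0 lower (edgeR) was also found with DESeq2, limma-voom, RLE size factors, total counts alone, no filter on low counts, and corrections for GC content or gene length that were chosen after seeing the data. It was 7 with limma on log2(FPKM + 1), where Cspg4 was lost, and 6 with a change of at least 2-fold. Leaving out each mouse in turn gave 7 to 8 mural genes higher. Scaling to the endothelial markers gave 4 higher and 3 lower, reversed Rgs5 to -0.70, and gave 0 higher and 9 lower for the other pericyte genes, 7 and 3 for the other smooth muscle genes, 2 higher for the PDGF genes, 3 and 3 for the NOTCH genes, and 0 and 4 for the 6 close relatives, with 1187 of all genes higher. By construction this scaling shifts all genes, of which 10034 were called lower, so it compares with endothelial genes only.

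With at least 2-fold required, 2410 of all tested genes were called and 2158 were higher, as were 3 other pericyte, 12 other smooth muscle, 3 PDGF and 6 NOTCH genes, with 0 NOTCH genes lower and 0 relatives higher or lower. Of the relatives, 1 was lower with total counts alone, with log2(FPKM + 1), with the gene length correction, and 1 to 2 with a mouse left out, in place of 2; the cause was not tested. Without the filter, 1 alternative channel subunit, Abcc8, was called higher (edgeR). With a mouse left out, the other pericyte genes stayed at 9 higher, and the other smooth muscle genes gave 17 to 19.

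Same-numbered mice correlated at 0.19, 0.07 and -0.27 in their deviations from the group mean, and not every mouse correlated best with its own number. With deviations taken within groups of 3, these correlations depend on one another, so they cannot exclude a pairing. With the replicate block, 8 mural genes were higher and 7909 genes in all were called, against 8246. Depth limits Cspg4 and Notch3 most, with 3 to 75 counts per mouse.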
